A study of Mus musculus with 47 samples.

Results

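The genes described here are 44 mouse genes of DNA repair and DNA damage signalling, read in JB6 cells with normal or lowered Anxa2 after low and moderate doses of X-rays. JB6 is an established line from mouse epidermis in which tumour promotion has long been studied, and Anxa2 encodes annexin A2, a calcium-dependent membrane-binding protein. A gene was measured where the array had a probe set with exactly 1 gene symbol that is a listed gene, and a gene with several was read from the one with the highest mean. This gave 40 of the 44 genes, out of 12393 genes read in this way. Xrcc2, Fancd2, Lig4 and Mdc1 had no such probe set and were not analysed here. By pathway, 12 of 14 listed genes of homologous recombination, 4 of 5 of end joining, 6 of 7 of damage signalling, 10 of 10 of base excision and single-strand break repair, 2 of 2 of mismatch repair and 6 of 6 of nucleotide excision repair were measured. Of the 40, 39 lay above the filter on low values, a mean of 4.35 on the log2 scale, and were tested. Bard1, a partner of Brca1, had a mean of 4.34, group means between 4.13 and 4.57, and no test.

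RNA of 47 samples was hybridised, 1 array each. Both lines are JB6 cells that went through retroviral transfer and puromycin selection. The vector cells received the empty vector, and the shRNA cells received a short hairpin RNA against AnxA2. 1 shRNA line was compared with 1 vector line, so that the shRNA and other differences between the lines cannot be told apart. Cells of each line received 10 cGy or 100 cGy of X-rays and were collected after 2, 6 or 24 h, and sham-treated cells, called untreated here, were collected at 2 and 24 h. Each of the 16 groups has 3 arrays except vector cells 24 h after 10 cGy, which have 2. No untreated 6 h group is among these samples, so that a change between 6 h and another time in irradiated cells has no untreated counterpart. Whether the numbered replicates are separate cultures is not in the labels, and p values then measure only the spread between these arrays, which may be technical.

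Cells repair broken and altered DNA by separate routes. Homologous recombination copies the sister chromatid, with the MRN complex (Mre11a, Rad50, Nbn) trimming the ends and Brca1 and Brca2 acting after it, while end joining ligates both ends after the Ku proteins Xrcc5 and Xrcc6 and the kinase Prkdc have bound them. Base excision repair removes oxidised or deaminated bases with glycosylases such as Ung and Ogg1 and the nuclease Apex1, nucleotide excision repair cuts out bulky lesions, and mismatch repair corrects copying errors. The kinases Atm and Atr signal damage through Chek1, Chek2 and the histone variant H2ax. Much of this signalling works through protein phosphorylation, which an RNA array does not measure.

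In the targeted gene, Anxa2, the shRNA cells had group means of 10.70 to 11.16 on the log2 scale and the vector cells 12.34 to 12.61. The untreated lines differed by -1.55 ± 0.06 (log2 difference ± standard error, limma adjusted p = 3.38e-23), without overlap between arrays. Over the 8 pairs of groups the shRNA cells had 31.3% to 37.7% of the vector signal by this probe set, against a lowering of more than 95% given in the labels. A second Anxa2 probe set above the filter differed less, by -0.89 in untreated cells and by -0.74 at 6 h after irradiation. Of 10 epithelial and keratinocyte markers, 7 lay under the filter limit in vector cells and 6 in shRNA cells, among them Cdh1, Epcam and Trp63 in both lines, and Krt14 had a mean of 6.57 in shRNA and 3.84 in vector cells. Of 7 mesenchymal markers, 6 lay above the limit in both lines, with Vim at 13.30 and 12.99 and Col1a2 at 12.97 and 12.24 in shRNA and vector cells. Of 5 leukocyte markers, Cd14 (7.99 and 7.55) and Cd3e (5.58 and 5.47) lay above the limit in shRNA and vector cells, and Ptprc, Cd68 and Itgam under it in both lines. Of the epithelial and keratinocyte list, Krt5, Krt8 and Itgb4 lay above the limit in both lines, at means of 5.05 or below. Most of the 10 genes of that list were thus under the limit in these JB6 cells. The part of marker differences in the results below was not tested. In RNA from whole cultures, fewer cells of a type and less RNA per cell cannot be told apart.

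4 arrays had a Gapdh signal higher at the 3' than at the 5' end by more than 0.3 log2 units. They were shRNA 10 cGy 6 h replicate 1 at 1.06, vector untreated 2 h replicate 3 at 0.59, shRNA 100 cGy 2 h replicate 2 at 0.49 and shRNA untreated 2 h replicate 1 at 0.31. The replicate 3 arrays of vector cells at 2 h also stood apart. Against the other arrays of their groups the measured genes lay at a median of 0.04 in untreated cells, 0.18 after 10 cGy and 0.09 after 100 cGy, with Ddb2 at 1.25 after 10 cGy and Ung at -0.87 after 100 cGy as the extremes. Counts of called genes without these arrays stand beside the results. Where an array left out is not in the compared groups, the differences stay the same. Only the spread estimated over all groups then changes.

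**Figure D1:**
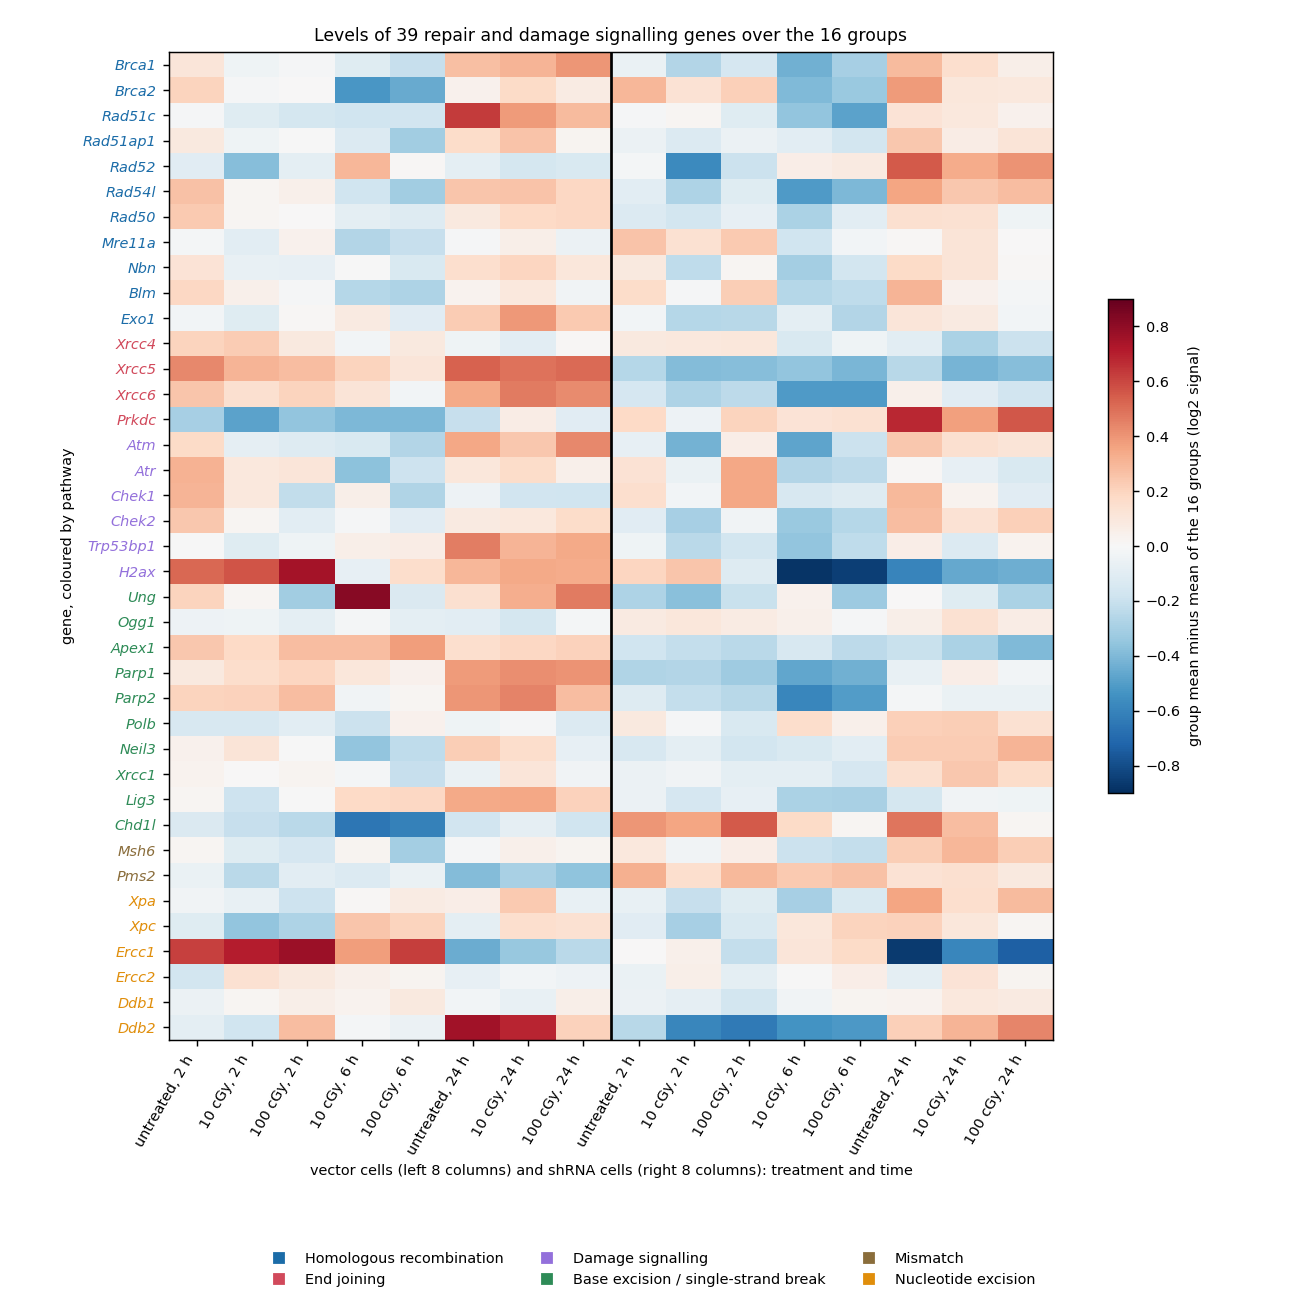
Group means of the tested genes as log2 differences from each gene's mean over all 16 groups, with genes in rows ordered by pathway and groups in columns ordered by line, time and dose. The rows of Ercc1 and H2ax have the widest ranges, 1.63 log2 units each, and that of Ddb1 the narrowest, 0.26.

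All values are log2 RMA signals, so that a difference of 1 is a doubling of signal, and they were compared within a gene and never between genes. The range of the 16 group means had a median of 0.69 over the 40 genes. It exceeded 1 in 9 of them. The widest ranges were those of Rad52 in homologous recombination (1.13), Prkdc in end joining (1.16), H2ax in signalling (1.63), Chd1l in base excision (1.20), Pms2 in mismatch repair (0.71) and Ercc1 in nucleotide excision repair (1.63). The narrowest were those of Bard1 (0.45), Xrcc4 (0.52), Chek2 (0.61), Ogg1 (0.29), Msh6 (0.60) and Ddb1 (0.26) in the same order of pathways.

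The lines were compared first in untreated cells and then in irradiated cells at 6 h, which share no array. In the untreated comparison, over 2 and 24 h, 17 of the 39 tested genes passed an adjusted p of 0.05 by limma, 6 higher and 11 lower in shRNA cells. This is 43.6% of them, beside 48.2% of all 8675 tested genes, with 15.4% higher beside 24.1% and 28.2% lower beside 24.1%. Their median difference was -0.07, and that of all tested genes 0.02. At 6 h after irradiation 17 genes again passed, 5 higher and 12 lower, beside 49.8% of all tested genes (12.8% higher beside 25.3% and 30.8% lower beside 24.5%), with a median of -0.12 beside 0.04. Shares as close to the background as these are no result about repair genes as a set, and the results lie in the single genes. Without the 3 vector 2 h replicate 3 arrays the counts were 19 and 22, and without the 4 arrays with a high Gapdh difference 19 and 19.

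10 genes were called lower in shRNA cells in both comparisons, namely Apex1, Ercc1, H2ax, Lig3, Parp1, Parp2, Rad51c, Ung, Xrcc5 and Xrcc6. They are 90.9% of the genes lower in untreated cells and 83.3% of those lower at 6 h, beside 81.4% and 80.2% over all tested genes. Chd1l, Pms2, Polb and Prkdc were called higher in both, which is 66.7% and 80.0% of the genes higher in each (beside 80.0% and 76.1%), and 0 genes were called in opposite directions. Over all 8 pairs of groups, the group mean was lower in shRNA cells in every pair for Apex1, Ercc1, H2ax, Parp1, Parp2, Trp53bp1, Xrcc5 and Xrcc6, and higher in every pair for Chd1l, Mre11a, Ogg1, Pms2 and Prkdc. Single differences were as small as -0.04 for Trp53bp1, 0.02 for Mre11a and 0.06 for Ogg1. The share of such genes over all tested genes was not computed, so these lists are no result about repair genes as a set.

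**Figure D2:**
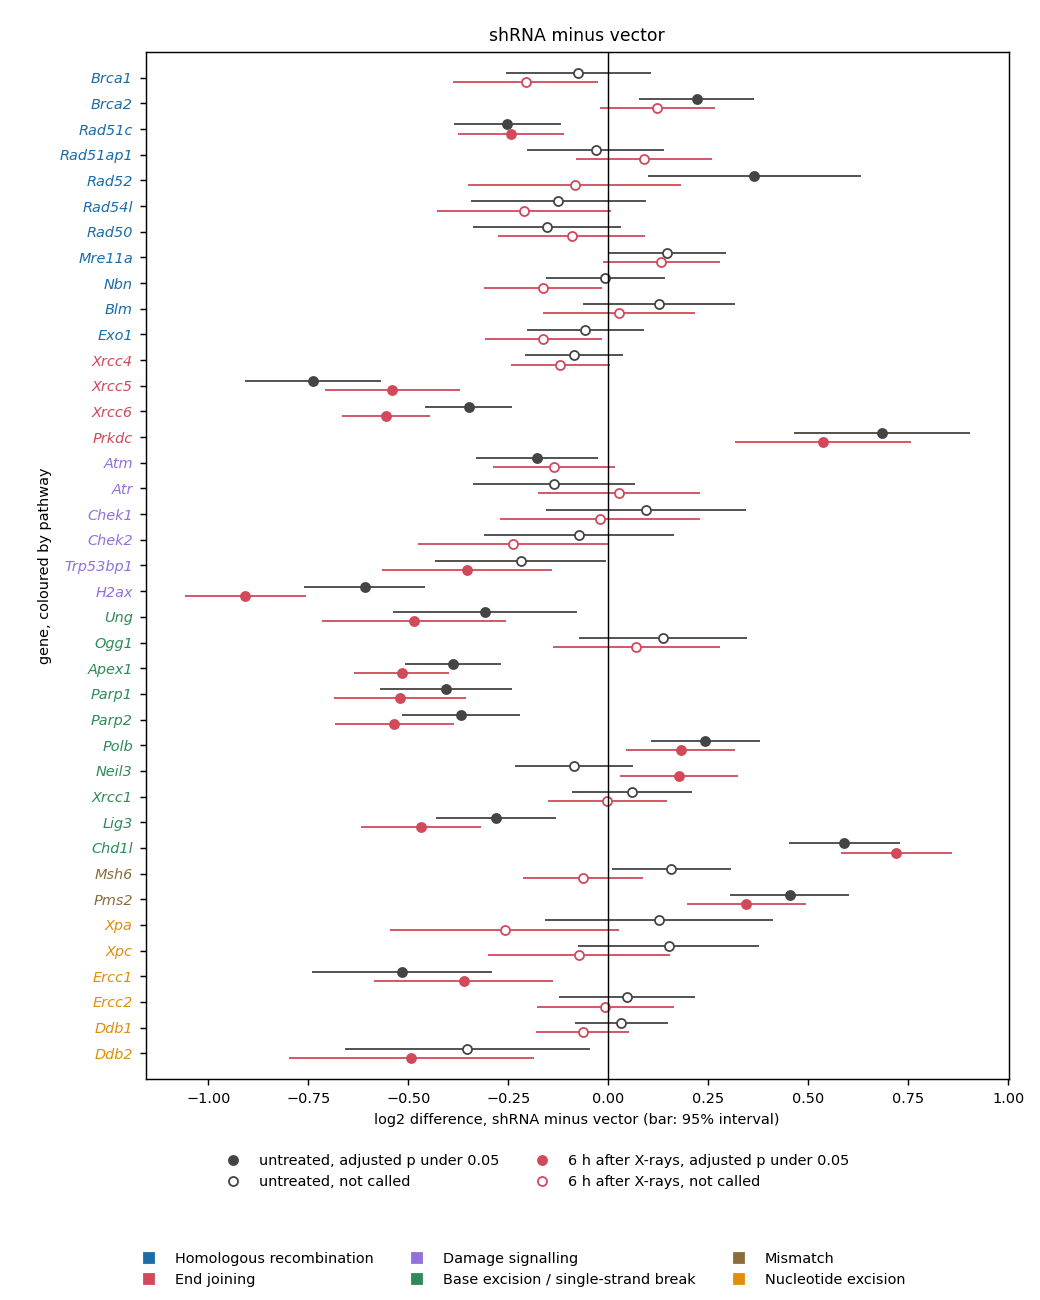
Log2 difference of shRNA minus vector cells for each tested gene, in untreated cells and in irradiated cells at 6 h, with bars for the 95% interval and filled points for an adjusted p under 0.05. Xrcc5 at -0.74 lies farthest to the left in untreated cells and H2ax at -0.91 at 6 h, while Prkdc and Chd1l lie to the right in both.

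In end joining, the DNA-binding Ku subunits and the kinase they recruit differed between the lines in opposite directions. Xrcc5, which encodes the larger Ku subunit, read 7.24, 7.10 and 7.29 in untreated vector cells at 2 h and 7.31, 7.32 and 7.29 at 24 h, and 6.42, 6.65 and 6.49 and then 6.77, 6.31 and 6.48 in untreated shRNA cells. Every vector array was above every shRNA array. The difference was -0.74 ± 0.08 (adjusted p = 1.76e-09), and -0.54 ± 0.08 at 6 h (adjusted p = 1.06e-06). Xrcc6, the smaller Ku subunit, ranged from 8.35 to 8.49 in untreated vector cells (median 8.48) and from 7.90 to 8.34 in untreated shRNA cells (median 8.08). It was lower by -0.35 ± 0.05 (adjusted p = 1.07e-06) without overlap, and by -0.56 ± 0.05 at 6 h (adjusted p = 4.30e-11).

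Prkdc, the catalytic subunit of the DNA-dependent kinase that binds Ku on broken ends, was higher in shRNA cells. It read 5.35, 5.16 and 5.25 at 2 h and 5.30, 5.37 and 5.38 at 24 h in untreated vector cells, against 5.81, 5.55 and 5.86 and then 6.42, 5.99 and 6.29 in untreated shRNA cells. The arrays did not overlap, and the difference was 0.68 ± 0.11 (adjusted p = 1.72e-06) in untreated cells and 0.54 ± 0.11 (adjusted p = 7.32e-05) at 6 h. The 24 h values of the shRNA cells lay above all their 2 h values, a change of 0.49 ± 0.15 (adjusted p = 0.0192). That call was lost without 2 h replicate 2 (adjusted p = 0.120) or without 24 h replicate 1 (0.114) or 3 (0.0666). Xrcc4, a scaffold of the ligation step, was not called between the lines.

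Base excision and single-strand break repair held 7 of the 17 genes called between untreated lines, 2 higher and 5 lower of 10. Over all tested genes 24.1% were called higher and 24.1% lower. Apex1, the nuclease that cuts at abasic sites, ranged from 10.24 to 10.54 (median 10.41) in untreated vector cells and from 9.97 to 10.11 (median 10.00) in untreated shRNA cells, a difference of -0.39 ± 0.06 (adjusted p = 8.10e-07). Parp1 and Parp2, which mark strand breaks with poly(ADP-ribose), were lower by -0.41 ± 0.08 (adjusted p = 6.77e-05) and -0.37 ± 0.07 (adjusted p = 6.04e-05). Parp2 ranged from 7.84 to 8.13 (median 7.96) in vector and from 7.50 to 7.72 (median 7.61) in shRNA cells. Arrays of the lines did not overlap for Apex1 and Parp2, and overlapped for Parp1, at 9.12 to 9.61 and 8.92 to 9.31. Both further probe sets of Apex1 and of Parp1 were lower too, at -0.39 and -0.50 for Apex1 and -0.47 and -0.49 for Parp1.

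Chd1l, a chromatin remodeller that binds poly(ADP-ribose), went the other way. Untreated vector cells read 6.11, 5.90 and 6.22 at 2 h and 5.95, 6.02 and 6.13 at 24 h, and untreated shRNA cells 6.53, 6.63 and 6.64 and then 6.77, 6.75 and 6.54. All shRNA arrays were above all vector arrays, with a difference of 0.59 ± 0.07 (adjusted p = 3.00e-09) in untreated cells and 0.72 ± 0.07 (adjusted p = 2.60e-11) at 6 h. Polb, the polymerase that fills the excised base, was higher by 0.24 ± 0.07 and 0.18 ± 0.07 (adjusted p = 0.00291 and 0.0240), with 1 of its 2 other probe sets at -0.04 at 6 h. The 6 h call was lost without vector 10 cGy or 100 cGy replicate 2 (0.0643 and 0.0509), shRNA 10 cGy replicate 1 (0.0721) or 100 cGy replicate 2 (0.0594), and with the mean of its probe sets, at 0.11 (0.0843). Ung, the uracil glycosylase, was lower by -0.31 ± 0.11 (adjusted p = 0.0231) and -0.49 ± 0.11 (adjusted p = 4.67e-04), and the ligase Lig3 by -0.28 ± 0.07 (0.00178) and -0.47 ± 0.07 (1.59e-06). These calls of Ung and Lig3 were not followed through the alternatives.

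Among the signalling genes H2ax, the histone variant phosphorylated around breaks, had one of the widest differences. Untreated vector cells read 9.21, 9.35 and 9.09 at 2 h and 9.00, 8.99 and 9.02 at 24 h, and untreated shRNA cells 8.72, 8.97 and 8.99 and then 8.11, 8.33 and 7.88. The 2 h shRNA arrays came close to or level with the 24 h vector arrays, whereas the 24 h shRNA arrays lay well below. The difference over both times was -0.61 ± 0.07 (adjusted p = 1.10e-08). H2ax fell by 0.78 ± 0.11 between 2 and 24 h in untreated shRNA cells (adjusted p = 7.89e-07) and stood at -0.22 in vector cells (adjusted p = 0.134). The difference of these changes was -0.57 ± 0.15 (adjusted p = 0.0156), a call lost without vector 2 h replicate 3 (adjusted p = 0.0587), shRNA 2 h replicate 2 (0.0514) or 3 (0.0577) or shRNA 24 h replicate 3 (0.0866).

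Irradiated H2ax followed a dip at 6 h in both lines. In vector cells at 2 h it read 9.18, 9.16 and 9.46 after 10 cGy and 9.49, 9.46 and 9.41 after 100 cGy, and at 6 h 8.67, 8.51 and 8.71 and 8.92, 8.79 and 8.87. In shRNA cells the 2 h values were 8.85, 8.97 and 9.03 and 8.64, 8.33 and 8.79, and the 6 h values 7.72, 7.96 and 7.79 and 7.87, 7.99 and 7.71. In each line every 6 h array was below every 2 h array, at both doses. The falls were -0.61 ± 0.07 in vector cells (adjusted p = 1.56e-07) and -0.93 ± 0.07 in shRNA cells (adjusted p = 8.53e-12), and their difference, -0.32 with a 95% interval of -0.53 to -0.10, did not pass (adjusted p = 0.102). From 6 to 24 h H2ax rose by 0.30 ± 0.08 and 0.41 ± 0.07 (adjusted p = 0.00273 and 2.85e-05).

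The kinases at the top of the signalling cascade were called mainly between times. Atm was lower in untreated shRNA cells by -0.18 ± 0.08 (adjusted p = 0.0468), and ranged from 7.41 to 7.80 (median 7.69) in vector and from 7.25 to 7.79 (median 7.45) in shRNA cells, with much overlap. This call is near the threshold and was not followed through the alternatives. In irradiated cells it rose from 6 to 24 h by 0.54 ± 0.08 in vector and 0.46 ± 0.08 in shRNA cells (adjusted p = 8.57e-07 and 4.51e-06). The vector arrays ranged from 7.04 to 7.34 (median 7.17) at 6 h and from 7.60 to 7.92 (median 7.77) at 24 h, and the shRNA arrays from 6.74 to 7.24 (median 7.17) and from 7.36 to 7.69 (median 7.52), without overlap between times. Atr, the kinase of single-stranded DNA, fell from 2 to 6 h by 0.38 ± 0.10 and 0.40 ± 0.10 (adjusted p = 0.00621 and 0.00341), and rose from 6 to 24 h in vector cells by 0.38 ± 0.11 (adjusted p = 0.00360). The effector kinase Chek2 rose in shRNA cells from 6 to 24 h by 0.47 ± 0.12 (adjusted p = 0.00143).

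Over untreated time, 24 h against 2 h, 7 tested genes changed in vector cells, 4 higher and 3 lower (10.3% and 7.69%, beside 13.0% and 12.9%, or 25.9% in all, of all tested genes), and 7 changed in shRNA cells, 5 higher and 2 lower (12.8% and 5.13%, beside 10.1% and 9.14%, or 19.2% in all). The medians were 0.02 beside 0.02 in vector and 0.13 beside 0.02 in shRNA cells. Without the 3 vector 2 h replicate 3 arrays 6 and 11 genes changed, and without the 4 arrays with a high Gapdh difference 8 and 11. The vector count was 3 without 2 h replicate 3 and 4 without 24 h replicate 3, and the shRNA count 4 without replicate 3 of either time. Ercc1 was the gene lower in both lines, and no gene was higher in both. Over all tested genes, 34.7% of those higher in vector and 44.6% of those higher in shRNA cells were higher in both, and 41.1% and 58.0% of those lower. A difference between lines in this change was called in 2 genes, H2ax and Rad51c (beside 5.69% of all tested genes).

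Rad51c, a gene of homologous recombination, rose in untreated vector cells by 0.64 ± 0.09 (adjusted p = 1.55e-06). The vector arrays read 5.81, 5.92 and 5.80 at 2 h and 6.55, 6.35 and 6.56 at 24 h, and the shRNA arrays 5.91, 5.82 and 5.82 and then 5.97, 6.03 and 5.93. The 24 h vector arrays stand above all others, and in shRNA cells the change was 0.13 ± 0.09 (adjusted p = 0.374). The difference of the changes was -0.51 ± 0.13 (adjusted p = 0.0135), with a second probe set at -0.72. It missed the threshold without the 4 arrays with a high Gapdh difference (adjusted p = 0.0509) and with the mean of both probe sets (0.0962).

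In vector cells Ddb2, a damage sensor of nucleotide excision repair, also rose over untreated time, from 4.36, 4.34 and 4.58 to 5.32, 4.96 and 5.53, by 0.85 ± 0.21 (adjusted p = 0.00280). Its lowest arrays lie at the filter limit. Trp53bp1, which binds chromatin at breaks, rose by 0.46 ± 0.15 (adjusted p = 0.0188) and Lig3 by 0.32 ± 0.10 (adjusted p = 0.0198). Both calls were lost without 2 h replicate 3 (adjusted p = 0.0744 and 0.0761) and without 24 h replicate 3 (0.0791 and 0.0503), that of Lig3 also without 24 h replicate 1 (0.113), and 1 of the 3 other Lig3 probe sets stood at -0.24. With the mean of all its probe sets Lig3 stood at 0.04 (adjusted p = 0.701). Pms2, a mismatch repair endonuclease, fell by 0.33 ± 0.10 (adjusted p = 0.0164), a call lost without 2 h replicate 3 (0.115) or 24 h replicate 3 (0.0642). Between the lines Pms2 was higher in untreated shRNA cells by 0.45 ± 0.07 (adjusted p = 2.38e-06) and at 6 h by 0.35 ± 0.07 (adjusted p = 1.46e-04).

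In untreated shRNA cells the genes that rose with time besides Prkdc were Rad52, by 0.57 ± 0.19, Rad54l, by 0.45 ± 0.15, Neil3, by 0.37 ± 0.10, and Atm, by 0.31 ± 0.11 (adjusted p = 0.0264, 0.0311, 0.00801 and 0.0335). Rad52 read 5.22, 5.28 and 5.13 at 2 h and 5.99, 5.55 and 5.80 at 24 h, and Atm read 7.39, 7.32 and 7.25 and then 7.79, 7.51 and 7.60, without overlap between times. The call of Rad52 was lost without replicate 1 or 3 of either time (adjusted p = 0.0581 to 0.132), that of Rad54l without 2 h replicate 1 or 3 or 24 h replicate 3 (0.0675 to 0.145) and with the mean of its probe sets (a difference of 0.21, adjusted p = 0.344), that of Atm without 2 h replicate 2 or 3 or 24 h replicate 1 or 3 (0.0637 to 0.185) and that of Neil3 without 24 h replicate 2 (0.0543). Rad52 was also higher in untreated shRNA than vector cells, by 0.36 ± 0.13 (adjusted p = 0.0203), a call lost without vector 2 h replicate 2 (0.0771), vector 24 h replicate 3 (0.0575) or shRNA 24 h replicate 1 (0.0623). It was lost too with the mean of its probe sets, at 0.24 (0.0619).

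Ercc1, which with Xpf makes the cut on one side of a bulky lesion, had its lowest group means at 24 h in each line, with and without irradiation. Untreated vector cells read 9.62, 10.02 and 9.69 at 2 h and 8.75, 8.52 and 8.87 at 24 h, and untreated shRNA cells 8.95, 9.17 and 9.36 and then 8.34, 8.50 and 8.04. The times did not overlap within a line, and the falls were -1.06 ± 0.16 (adjusted p = 2.07e-06) and -0.87 ± 0.16 (adjusted p = 8.42e-05). In irradiated cells Ercc1 fell between 6 and 24 h by 0.79 ± 0.12 in vector and 0.80 ± 0.11 in shRNA cells (adjusted p = 8.70e-07 and 2.85e-07), from 9.35 to 9.83 (median 9.75) to 8.74 to 8.98 (median 8.89) in vector arrays and from 9.21 to 9.45 (median 9.27) to 8.35 to 8.74 (median 8.47) in shRNA arrays. The difference between lines at 24 against 6 h was -0.01, with a 95% interval of -0.34 to 0.32. Ercc1 was lower in shRNA cells by -0.52 ± 0.11 untreated (adjusted p = 1.70e-04) and by -0.36 ± 0.11 at 6 h (adjusted p = 0.00634).

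**Figure D3:**
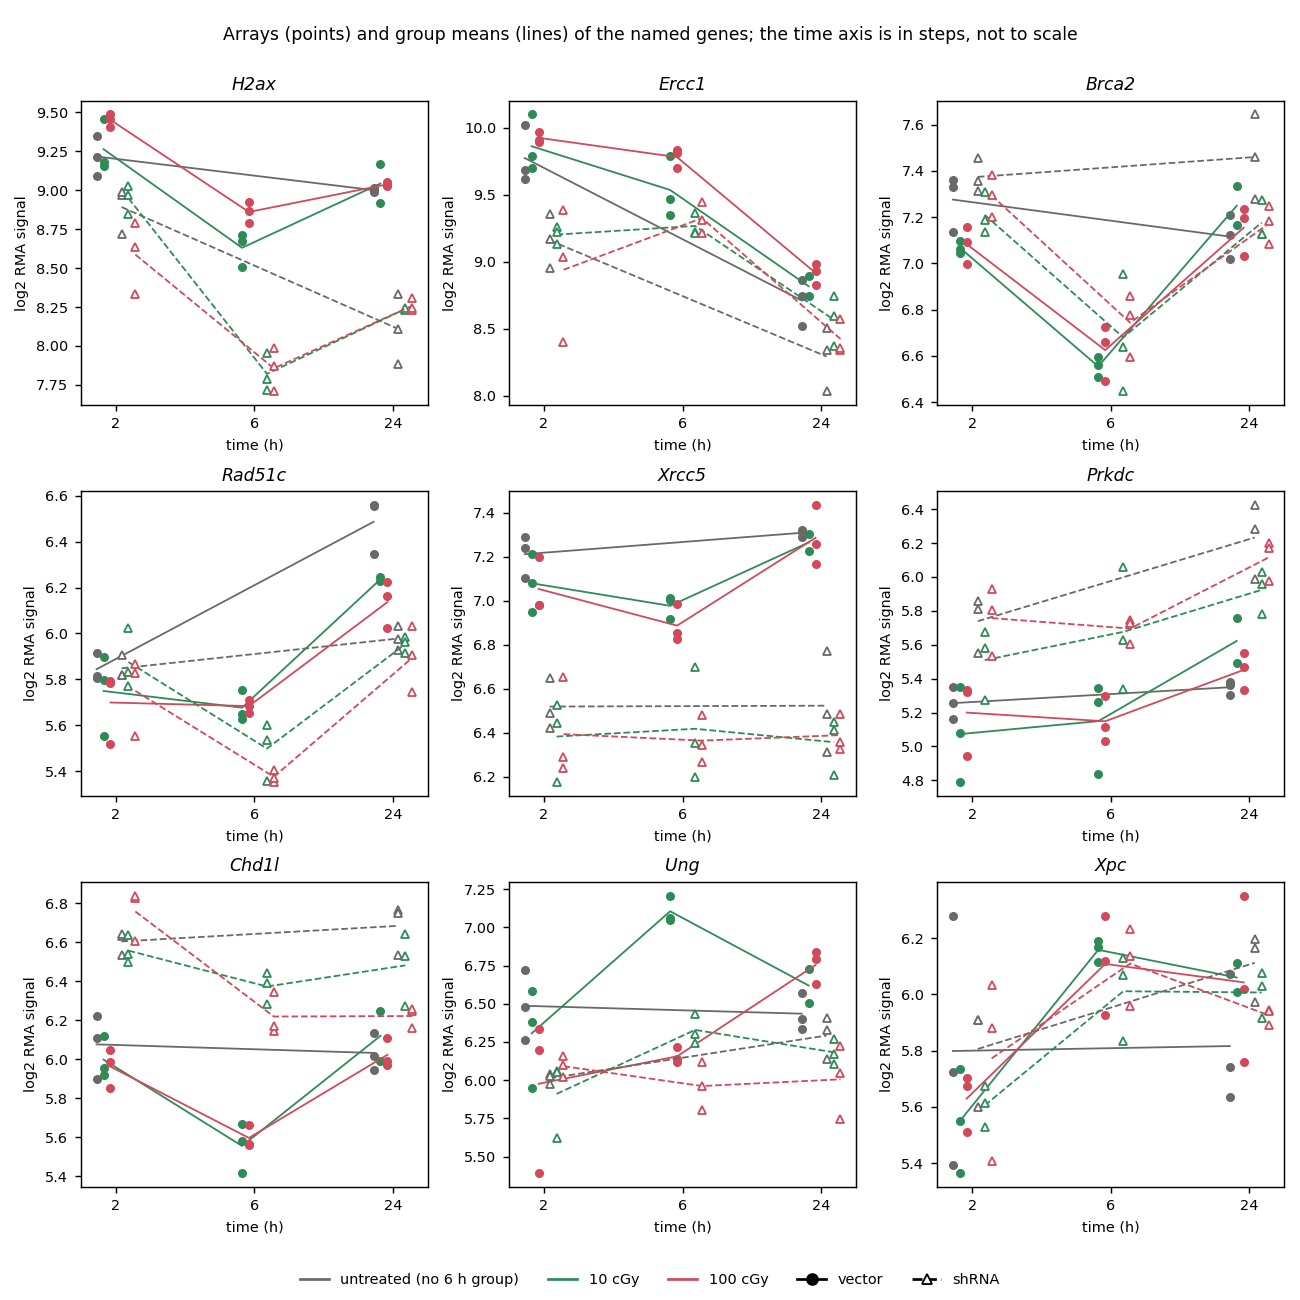
Log2 RMA signal of each array by time for H2ax, Ercc1, Brca2, Rad51c, Xrcc5, Prkdc, Chd1l, Ung and Xpc, in vector and shRNA cells, untreated or after 10 or 100 cGy, with lines through the group means. H2ax and Brca2 dip at 6 h in both lines, and Ercc1 is lowest at 24 h with and without irradiation.

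From 2 to 6 h in irradiated cells, with both doses averaged, 12 tested genes changed in vector cells, 4 higher and 8 lower, and 13 in shRNA cells, 2 higher and 11 lower. They are 30.8% and 33.3% of the tested genes, beside 16.7% and 21.5% of all genes. The share lower was 20.5% beside 7.82% in vector and 28.2% beside 9.51% in shRNA cells, and the share higher 10.3% beside 8.90% and 5.13% beside 12.0%. Medians were -0.08 beside -0.02 and -0.09 beside 0.02. Atr, Blm, Brca2, Chd1l, H2ax, Mre11a and Parp2 fell in both lines, 87.5% of the genes that fell in vector and 63.6% of those that fell in shRNA cells (beside 52.1% and 42.8% over all tested genes), and Rad52 and Xpc rose in both. The vector call of Blm was lost without any of 7 arrays (adjusted p = 0.0514 to 0.0848), namely 10 cGy 2 h replicate 3, 10 cGy 6 h replicates 1 and 3, 100 cGy 2 h replicates 2 and 3 and 100 cGy 6 h replicates 1 and 3, and the shRNA call of Atr in a fit of only the compared groups (0.0751). Without the 3 vector 2 h replicate 3 arrays the counts were 10 and 16, and without the 4 arrays with a high Gapdh difference the shRNA count was 12.

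Brca2, which acts on resected ends, was the clearest of these in homologous recombination. Vector arrays read 7.04, 7.06 and 7.10 after 10 cGy and 7.00, 7.09 and 7.16 after 100 cGy at 2 h, 6.60, 6.56 and 6.51 and 6.66, 6.72 and 6.49 at 6 h, and 7.33 and 7.17 and 7.20, 7.24 and 7.03 at 24 h. The 6 h arrays lie below all others. The changes were -0.49 ± 0.07 and then 0.61 ± 0.08 (adjusted p = 4.67e-06 and 2.16e-08). In shRNA cells Brca2 ranged from 7.14 to 7.38 (median 7.25) at 2 h, from 6.45 to 6.95 (median 6.71) at 6 h and from 7.08 to 7.27 (median 7.16) at 24 h, with changes of -0.54 ± 0.07 and 0.46 ± 0.07 (adjusted p = 4.44e-07 and 1.79e-06). The changes from 2 to 6 h and from 6 to 24 h share the 6 h arrays, so a low 6 h level enters both.

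Xpc, the first lesion sensor of nucleotide excision repair, rose from 2 to 6 h by 0.54 ± 0.11 in vector cells (adjusted p = 5.56e-04), with arrays of 5.37 to 5.73 (median 5.61) and 5.93 to 6.28 (median 6.14) that did not overlap. In shRNA cells it rose by 0.37 ± 0.11 (adjusted p = 0.0139), from 5.41 to 6.03 (median 5.64) to 5.83 to 6.23 (median 6.10), a call lost without 100 cGy 2 h replicate 3 (adjusted p = 0.0664). Rad52, a single-strand annealing protein, rose by 0.39 ± 0.13 and 0.45 ± 0.13 (adjusted p = 0.0346 and 0.0103). Its other probe set stood at 0.00 and 0.11, and the vector call was lost without any of 7 arrays (adjusted p = 0.0582 to 0.135), namely 10 cGy 2 h replicates 1 and 2, 10 cGy 6 h replicates 2 and 3, 100 cGy 2 h replicate 1 and 100 cGy 6 h replicates 2 and 3. The shRNA call was lost without the 4 arrays with a high Gapdh difference (0.0601). With the mean of both probe sets Rad52 stood at 0.20 and 0.28, and neither call was kept (adjusted p = 0.230 and 0.0579). Ung rose in vector cells by 0.49 ± 0.11 (adjusted p = 0.00196), with group means going from 6.31 to 7.10 after 10 cGy and from 5.98 to 6.16 after 100 cGy. After 100 cGy its arrays read 6.33, 6.20 and 5.39 at 2 h and 6.12, 6.14 and 6.21 at 6 h. The higher 6 h mean at that dose thus rests on the low replicate 3 at 2 h. The call was lost in a fit of only the compared groups (0.0503).

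3 genes differed between lines in the change from 2 to 6 h, beside 2.85% of all tested genes. Lig3 rose by 0.27 ± 0.07 in vector cells (adjusted p = 0.00804), from 6.75 to 7.16 (median 6.93) to 7.12 to 7.37 (median 7.19), and went from 6.73 to 7.12 (median 6.91) to 6.58 to 6.86 (median 6.80) in shRNA cells. The difference was -0.45 ± 0.10 (adjusted p = 0.0110), and its 3 other probe sets stood at -0.27, -0.18 and -0.17. With the mean of all its probe sets the difference was lost (adjusted p = 0.138), as was the rise in vector cells (0.0667). For Rad51c, which fell in shRNA cells by 0.38 ± 0.07 (adjusted p = 4.97e-05), and for Neil3, a glycosylase of oxidised bases, which fell in vector cells by 0.35 ± 0.07 (adjusted p = 6.16e-04), the differences between lines were -0.33 ± 0.09 and 0.36 ± 0.10 (adjusted p = 0.0417 and 0.0444). Each of these calls was lost in 21 of the alternatives tried, with adjusted p of 0.0516 to 0.145 for Rad51c and 0.0535 to 0.145 for Neil3.

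The largest share of repair genes changed between 6 and 24 h after irradiation, and almost all of them upward. In vector cells 21 rose and 2 fell of 39, which is 59.0% beside 39.0% of all tested genes. The share that rose was 53.8% beside 22.4%, and the share that fell 5.13% beside 16.5%. In shRNA cells 22 rose and 3 fell, 64.1% beside 39.2%, with 56.4% higher beside 20.7% and 7.69% lower beside 18.6%. Medians were 0.26 beside 0.02 in vector and 0.25 beside -0.01 in shRNA cells. The counts were 24 and 26 without the 3 vector 2 h replicate 3 arrays, and 25 in shRNA cells without the 4 arrays with a high Gapdh difference. No untreated 6 h arrays are among these samples to set beside these changes.

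17 genes rose in both lines: Atm, Blm, Brca1, Brca2, Ddb2, Exo1, H2ax, Nbn, Neil3, Parp1, Parp2, Prkdc, Rad50, Rad51ap1, Rad51c, Rad54l and Xrcc6. They are 81.0% of those that rose in vector and 77.3% of those that rose in shRNA cells, beside 61.9% and 67.1% over all tested genes. Homologous recombination had the most, with 10 of 11 tested genes higher in vector cells and 9 of 11 in shRNA cells, 0 lower, and medians of 0.32 and 0.30. Signalling had 3 of 6 higher in each line, end joining 3 and 2 of 4, and base excision 4 and 5 of 10. In nucleotide excision repair 1 and 2 of 6 were higher and Ercc1 was lower. Atr, Chd1l, Mre11a and Xrcc5 rose in vector cells and were not called in shRNA cells, and Chek2, Lig3, Msh6, Xpa and Xrcc1 rose in shRNA cells and were not called in vector cells. Of these 9 genes the difference between lines passed for Chd1l.

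**Figure D4:**
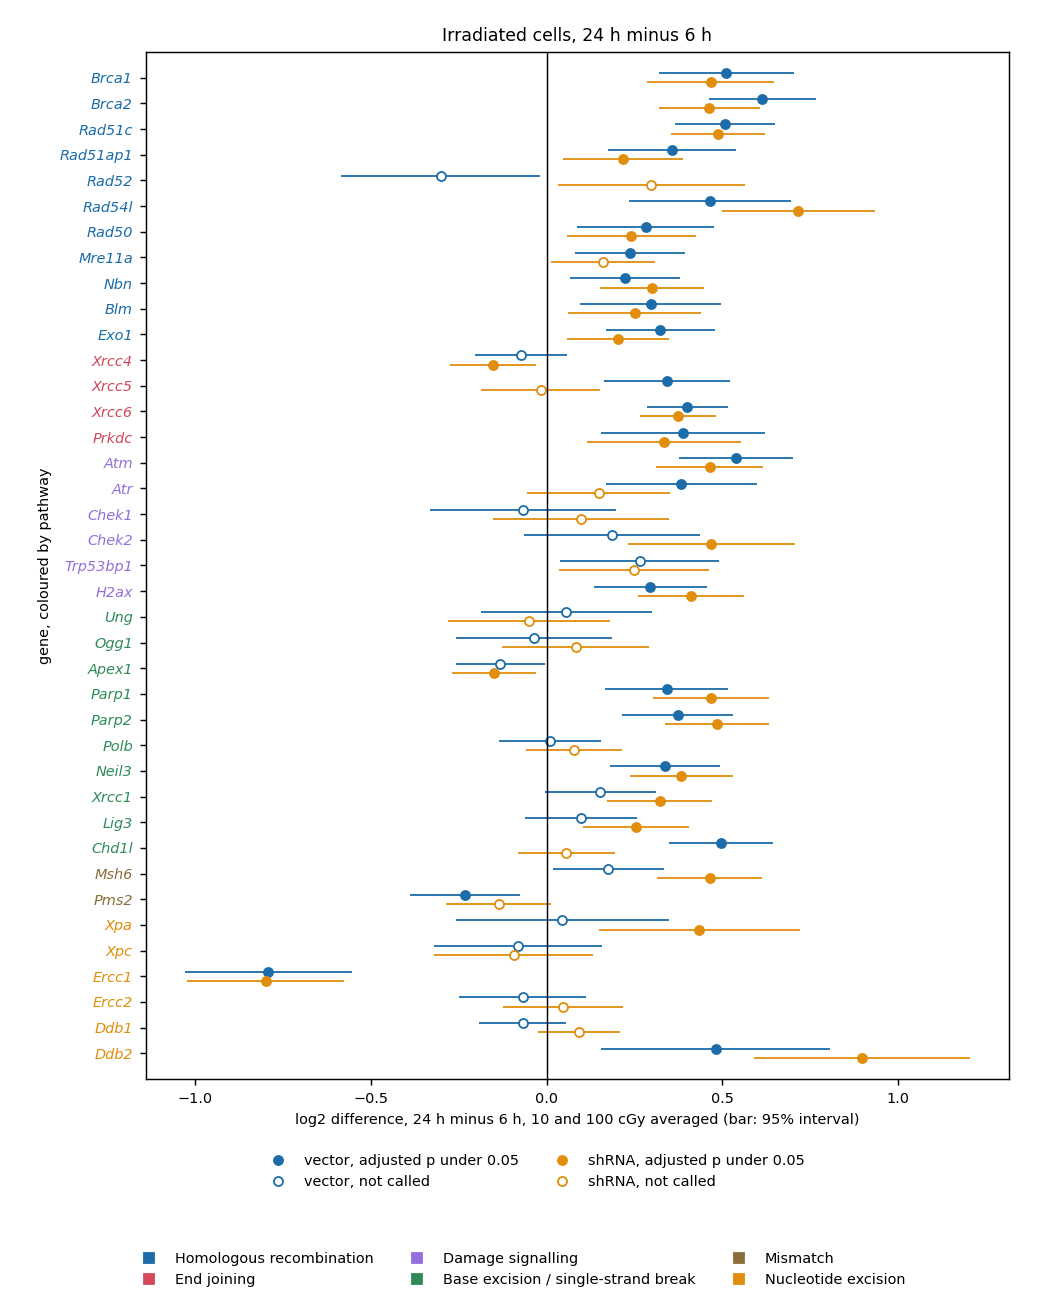
Log2 difference of 24 h minus 6 h in irradiated cells for each tested gene, doses averaged, in vector and shRNA cells, with bars for the 95% interval and filled points for an adjusted p under 0.05. All 11 genes of homologous recombination except Rad52 lie to the right of 0 in both lines, and Ercc1 at -0.79 and -0.80 lies farthest to the left.

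Brca1, which guides the choice of repair route, rose by 0.51 ± 0.09 in vector and 0.47 ± 0.09 in shRNA cells (adjusted p = 3.33e-05 and 5.87e-05). Vector arrays ranged from 7.47 to 7.77 (median 7.56) at 6 h and from 7.87 to 8.27 (median 8.07) at 24 h, and shRNA arrays from 7.05 to 7.53 (median 7.42) and from 7.79 to 8.01 (median 7.81), without overlap. 2 of its 3 other probe sets were higher too, and 1 stood at -0.02 and -0.07. Rad54l, a motor protein that helps strand exchange, rose by 0.46 ± 0.11 and 0.72 ± 0.11 (adjusted p = 0.00113 and 1.27e-06), and its shRNA arrays went from 6.86 to 7.31 (median 7.12) to 7.80 to 7.88 (median 7.82), a call lost with the mean of its probe sets (0.0814). Rad51c rose by 0.51 ± 0.07 and 0.49 ± 0.07 (adjusted p = 2.26e-07 and 1.78e-07), from 5.62 to 5.75 (median 5.67) to 6.02 to 6.25 (median 6.22) in vector arrays and from 5.35 to 5.60 (median 5.39) to 5.75 to 6.03 (median 5.94) in shRNA arrays.

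Outside homologous recombination, Ddb2 rose by 0.48 ± 0.16 in vector and 0.90 ± 0.15 in shRNA cells (adjusted p = 0.0154 and 8.53e-06). Its shRNA arrays ranged from 3.58 to 4.27 (median 4.08) at 6 h, under the filter limit in each case, and from 4.55 to 5.14 (median 4.91) at 24 h. The vector call was lost without 10 cGy 24 h replicate 3 (adjusted p = 0.103), and the difference between lines, 0.42 with a 95% interval of -0.03 to 0.86, did not pass. Parp2 rose by 0.37 ± 0.08 and 0.48 ± 0.07 (adjusted p = 1.66e-04 and 1.35e-06). Msh6, which recognises mismatches, rose in shRNA cells by 0.46 ± 0.07 (adjusted p = 3.17e-06), from 8.01 to 8.40 (median 8.16) to 8.49 to 8.89 (median 8.67). The genes that fell besides Ercc1 were Pms2 in vector cells, by 0.23 ± 0.08, lost without 10 cGy 6 h replicate 1 (adjusted p = 0.0615) or 24 h replicate 3 (0.0771), and Apex1 and Xrcc4 in shRNA cells, each by 0.15 ± 0.06, with adjusted p of 0.0156, 0.0408 and 0.0421. The falls of Apex1 and Xrcc4 are near the threshold and were lost in 12 and 13 alternatives (adjusted p = 0.0517 to 0.443 and 0.0504 to 0.165), and another probe set of Apex1 stood at 0.05.

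2 genes differed between lines in the change from 6 to 24 h, beside 10.1% of all tested genes. Chd1l rose in vector cells by 0.50 ± 0.07 (adjusted p = 6.67e-07), from 5.42 to 5.67 (median 5.57) to 5.97 to 6.25 (median 5.99), and in shRNA cells lay at 6.15 to 6.45 (median 6.31) and 6.16 to 6.64 (median 6.26). The difference was -0.44 ± 0.10 (adjusted p = 0.00233), and it was called in every alternative run. Rad52 differed by 0.60 ± 0.19 (adjusted p = 0.0375), with vector arrays of 4.99 to 5.72 (median 5.36) and 4.80 to 5.33 (median 5.06) and shRNA arrays of 5.06 to 5.43 (median 5.32) and 5.27 to 6.00 (median 5.55). Neither line's own change was called, and the difference was lost in 14 alternatives (adjusted p = 0.0513 to 0.168). Without shRNA 10 cGy 6 h replicate 1, 4 genes differed.

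The other repair, replication and mitotic genes measured beside these moved as follows. From 2 to 6 h, 5 of 59 other repair genes rose and 14 fell in vector cells, and 7 rose and 17 fell in shRNA cells. Of 22 replication genes 14 fell and 1 rose, and 13 fell and 0 rose. Of 23 mitotic genes 12 fell and 0 rose, and 11 fell and 0 rose. From 6 to 24 h, 20 and 27 of the other repair genes rose and 5 and 3 fell, 14 and 11 replication genes rose and 0 and 1 fell, and 2 and 5 mitotic genes rose and 3 and 4 fell. Rfc4, a clamp loader of replication, fell by 0.60 and 0.58 and then rose by 0.64 and 0.56 in vector and shRNA cells. Replication genes thus moved beside the homologous recombination genes, and their part in the result was not tested.

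The 250 bases before the start that the RefSeq promoter table takes for a gene were searched for 3 short motifs on both strands, because many of these genes moved together after 6 h. The sequences are RefSeq's, on GRCm38.p6, and 32 of the 40 measured genes had one. An E2F-type motif, any of TTTCCCGC, TTTGGCGC, TTTCGCGC and TTTGCCGC, was present in 4 of the 32 (12.5%), beside 2.16% of 27025 genes with a window. They were Brca2, Xrcc6, Chek2 and Bard1. CCAAT was present in 15 (46.9%), beside 37.5%, and TTTGAA, the core of a cell cycle element, in 1 (3.12%), beside 18.3%. A match is a description of these letters and not a site shown to be bound. The 3 tested genes with an E2F-type match are shown 5′ to 3′ with the match in capitals, which reads TTTCCCGC on the other strand. Brca2 is at chr5:150522371-150522620, Xrcc6 at chr15:82016119-82016368 and Chek2 at chr5:110839733-110839982, all on the plus strand.
Brca2: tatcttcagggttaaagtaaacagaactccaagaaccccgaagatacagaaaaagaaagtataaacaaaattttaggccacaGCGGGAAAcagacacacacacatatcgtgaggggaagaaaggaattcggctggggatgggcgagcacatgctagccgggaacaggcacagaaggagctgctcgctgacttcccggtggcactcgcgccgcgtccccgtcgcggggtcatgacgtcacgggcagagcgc
Xrcc6: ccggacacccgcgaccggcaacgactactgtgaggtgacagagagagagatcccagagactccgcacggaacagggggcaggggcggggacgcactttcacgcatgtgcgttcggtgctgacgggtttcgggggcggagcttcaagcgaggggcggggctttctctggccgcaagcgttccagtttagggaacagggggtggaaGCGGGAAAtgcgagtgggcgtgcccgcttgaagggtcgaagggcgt
Chek2: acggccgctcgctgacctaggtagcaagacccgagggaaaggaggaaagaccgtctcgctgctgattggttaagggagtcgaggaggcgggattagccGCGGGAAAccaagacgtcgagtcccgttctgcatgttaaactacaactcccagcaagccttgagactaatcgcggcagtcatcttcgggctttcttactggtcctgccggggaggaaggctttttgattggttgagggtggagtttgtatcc
The first bases of the matches lie at -168, -46 and -152 relative to the starts of that table, which for these 3 genes lie inside the outer bounds of the RefSeq gene record. For Xrcc6 that record runs from 81987833 to 82040085, so its whole window lies well inside the record. For Brca2 it runs from 150522297 to 150570147, so that whole window lies inside the record too. For Chek2 the record starts at 110839800, within the window. Of the 3 genes Brca2 and Xrcc6 rose from 6 to 24 h in both lines and Chek2 in shRNA cells. Atm, Blm, Brca1, Neil3, Parp1, Parp2, Rad51ap1, Rad51c and Rad54l, whose windows held no E2F-type match, rose in both lines too. A link between the match and the rise was not tested.

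Few repair genes were called between doses. As a check, Mdm2, a p53 target, rose at 2 h after 100 cGy by 0.88 ± 0.11 in vector cells and 0.63 ± 0.11 in shRNA cells (adjusted p = 7.67e-06 and 0.00463). Cdkn1a, another p53 target, rose at 2 h by 0.61 ± 0.11 in vector cells (adjusted p = 0.00719) and stood at 0.22 in shRNA cells (0.909). At 24 h it rose by 0.82 ± 0.11 in vector cells (1.03e-04) and stood at 0.05 in shRNA cells. The difference between lines in Cdkn1a did not pass by limma at 2 h (-0.40, adjusted p = 0.348) and passed at 24 h (-0.77, adjusted p = 0.0303). Mdm2 stood at 0.24 in vector and 0.07 in shRNA cells at 24 h, called in neither. The 95% interval of a tested repair gene reached a median of 0.23 log2 units to either side within a line, which limits the changes that 3 arrays a group can show.

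At 2 h after 100 cGy 0 of the 39 tested repair genes passed in vector cells by limma (beside 0.0461% of all tested genes), with 6 at an unadjusted p under 0.05, and 0 in shRNA cells (beside 0.0231%), with 3. The genes of smallest p in vector cells were Ung at -0.51, Chek1 at -0.52 and Atm at -0.29, and the smallest adjusted p was 0.287. Chek1, the effector kinase downstream of Atr, read 8.63, 8.13 and 8.93 in untreated and 8.01, 8.15 and 7.97 in irradiated arrays, which overlap. In shRNA cells they were H2ax at -0.31, Polb at -0.23 and Exo1, an end-trimming nuclease, at -0.22 (smallest adjusted p = 0.909). For the difference between lines 0 passed (beside 0.0115%) and 7 had an unadjusted p under 0.05, led by H2ax at -0.54, Chek1 at 0.72 and Atm at 0.42 (smallest adjusted p = 0.345).

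At 24 h after 100 cGy 0 genes passed in vector cells by limma (beside 0.0922%), with 3 at an unadjusted p under 0.05. Rad51c stood at -0.35 ± 0.09 (adjusted p = 0.256), Neil3 at -0.30 and Ddb2 at -0.55. In shRNA cells 1 passed (beside 0.161%). Chd1l read 6.77, 6.75 and 6.54 untreated and 6.25, 6.26 and 6.16 after 100 cGy, with 6.53, 6.27 and 6.64 after 10 cGy between and beside them. The fall after 100 cGy was -0.46 ± 0.10 (adjusted p = 0.0168). It was lost without 100 cGy replicate 1 (adjusted p = 0.0634), 2 (0.0647) or 3 (0.222), without untreated replicate 1 (0.215) or 2 (0.117), and in a fit of only the compared groups (0.265). Xrcc6 stood at -0.22 and Brca2 at -0.29 there. For the difference between lines 0 passed (beside 0.0807%), with 7 at an unadjusted p under 0.05, led by Chd1l at -0.45, Xrcc6 at -0.30 and Ung at -0.60 (smallest adjusted p = 0.591).

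After 10 cGy, over both lines and both times with untreated arrays, 0 genes passed by limma (beside 0% of all tested genes), with 7 at an unadjusted p under 0.05. Atm stood at -0.20 ± 0.05 (adjusted p = 0.371), Rad52 at -0.28 and Ercc2, a helicase of nucleotide excision repair, at 0.17. The 95% interval reached a median of 0.12 to either side.

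Between the doses, the clearest repair gene was Ung in vector cells at 6 h. It read 7.06, 7.20 and 7.05 after 10 cGy and 6.12, 6.14 and 6.21 after 100 cGy, and 6.44, 6.25 and 6.30 and then 5.80, 6.12 and 5.96 in shRNA cells. Every array after 100 cGy was below every array after 10 cGy in both lines. The difference was -0.95 ± 0.16 in vector cells (adjusted p = 0.00241), the 1 repair gene called there (beside 0.0922%), and the call held without any single array. In shRNA cells it was -0.37 with a 95% interval of -0.69 to -0.04 and did not pass (adjusted p = 0.999), and the difference between lines was not tested. At 2 h vector Ung read 6.72, 6.48 and 6.26 untreated, 6.38, 6.59 and 5.95 after 10 cGy and 6.33, 6.20 and 5.39 after 100 cGy, where replicate 3 was the lowest array of each group.

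Of the remaining dose comparisons, at 6 h in vector cells Msh6 stood at -0.33 and Polb at 0.24, and in shRNA cells 0 genes passed (beside 0%), with 2 at an unadjusted p under 0.05, Ung and Atm (0.28), and Exo1 next at -0.18. Over both lines 0 genes passed at 2 h (beside 0.0346%), with 3 at an unadjusted p under 0.05, Atm at 0.23, Rad52 at 0.34 and Atr at 0.21. At 24 h 0 passed (beside 0.115%), with 1 at an unadjusted p under 0.05, and Chd1l stood at -0.18, Exo1 at -0.13 and Xrcc4 at 0.10. Over all comparisons Chek1, Ogg1, Ercc2 and Ddb1 were the tested repair genes that passed in none. No other tool was run on these values.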

How the data were processed

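The authors deposited 1 table of log2 signals, summarised by RMA per the submitters' processing notes, version not given in the sources used here. Signals, between 1.84 and 14.03 with array medians of 5.66 to 5.78, were used as deposited. Of 22690 probe sets 64 are controls, 20380 have exactly 1 gene symbol, 691 several and 1555 none. All 40 measured genes matched RefSeq by symbol or number. 0 arrays were identical and 0 columns left unused. 17 of the measured genes have several probe sets.

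The 30% of genes with the lowest mean (under 4.35, which is not a measured background) were left out. A single limma fit (version 3.58.1 in R 4.3.3) of 16 group means gave every contrast, with Benjamini-Hochberg adjustment over 8675 genes, a threshold of 0.05 and two-sided p values. The group of 2 arrays, or of 1 where an array was left out, is thereby taken to vary like the others. The method was tested on simulated data. Genes and lists were chosen with earlier results of these data known.

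Named were, per comparison, up to 6 called genes in each direction by size of change and the 3 of smallest p in each dose comparison. The genes with the widest and narrowest range of group means in each pathway were named too. Lists of shared genes are complete. Values of further genes were added after they were seen, and their calls were not followed through the alternatives. Other probe sets, filters, sets of arrays, priors and a replicate block were tried as alternatives. Same-numbered arrays of a line and time deviated together with r over 0.1 in 27 of 40 pairs, from -0.294 to 0.720. In vector cells these were 8 of 9 pairs at 2 h, 0 of 3 at 6 h and 7 of 7 at 24 h. At 2 h their r ran from 0.077 to 0.720, beside -0.622 to 0.525 for arrays of different number. Some replicates thus moved together. What same-numbered arrays share is not in the labels, and the reported fit did not pair them. The number of arrays limits the precision.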

Additional observations from a re-analysis of the deposited data

Results flagged for a closer look

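In 7 cases the change over time of a repair gene differed between the lines by a test of the difference itself, with limma's adjusted p under 0.05. Over untreated time Rad51c differed by -0.51 and H2ax by -0.57 (shRNA minus vector). From 2 to 6 h after irradiation Rad51c differed by -0.33, Neil3 by 0.36 and Lig3 by -0.45. From 6 to 24 h Rad52 differed by 0.60 and Chd1l by -0.44. The last of these kept its call in every alternative run. The part of the arrays that stood apart was not tested beyond leaving them out.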

How the results depend on the processing

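Over 22 comparisons, 188 of 202 counts of called repair genes under another setting lay within 1.5 times the reported count, and 14 did not. The 188 include counts of 0 beside a reported 0, as in most dose comparisons. The count of genes that differed between lines from 2 to 6 h was 1 with no filter, with the lowest 50% of genes left out, with the mean of all probe sets, with only the compared groups and with a trended or robust prior. That over untreated time was 1 with the lowest 50% left out, the mean of probe sets, only the compared groups or without the 4 arrays of high Gapdh difference, and from 6 to 24 h it was 4 without those arrays. With only the compared groups the vector count over untreated time was 4 and the shRNA count at 24 h after 100 cGy 0. The shRNA count over untreated time was 11 without the 3 vector 2 h replicate 3 arrays and 11 without the 4 Gapdh arrays. Those 3 vector arrays are not in the compared groups, so only the spread estimated over all groups changed there. With the mean of all probe sets Polb (100 against 10 cGy at 6 h in vector cells) turned to -0.039 and Xrcc4 (100 against 10 cGy at 24 h) to -0.0089, neither called. The cause of the other changes was not tested.

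Leaving out each array in turn gave 15 to 18 genes for untreated lines, 15 to 20 for lines at 6 h, 3 to 8 and 4 to 7 over untreated time in vector and shRNA cells, 9 to 12 and 11 to 16 from 2 to 6 h, 19 to 24 and 19 to 25 from 6 to 24 h, 0 to 1 for shRNA cells at 24 h after 100 cGy, and 1 in each case for the doses at 6 h in vector cells. Differences between lines numbered 1 to 3 over untreated time, 1 to 3 from 2 to 6 h and 1 to 4 from 6 to 24 h, and the other dose comparisons 0. With the replicate number as a block, no count of repair genes moved by over 1.5 times (18 genes for untreated lines, 26 for shRNA cells from 6 to 24 h). The same held for the dose comparisons with a block within line and time. With that block, 21 instead of 4 of all tested genes were called in vector cells at 2 h after 100 cGy, and 17 instead of 8 at 24 h. No call of a named gene changed. Of 2209 values of single genes under an alternative, 179 lost a call and 2 reversed. These values include results that were not called and so could not lose a call. Of the 112 named results 81 were called, and 31 of these lost the call in at least 1 alternative.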
